A study of Arabidopsis thaliana with 6 samples.

Results

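Long intergenic noncoding RNA (lincRNA) transcription units on the arms of Arabidopsis thaliana chromosome 4 were followed in inflorescences of an rdr2 mutant and of the wild type. A unit was taken as an arm unit when its name began with AT4TU and its start lay more than 3 Mb from the 4 Mb point of the chromosome, that is, under 1 Mb or over 7 Mb. By this rule 439 of the 4499 lincRNA units on the array were members, with 1287 of its 15013 probes. The rule used names and positions alone, and no measured value, but it was chosen with earlier results of these data known. Of the 439 units, 40 lay at the short-arm end and 399 on the long arm. A start stood in the name of 91 units, and the other 348 were placed by linear interpolation on the unit number between stated starts, whose gap had a median of 352595 bases around these units. That the names denote lincRNAs was taken from the series title.

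The samples were inflorescences with open flowers, buds and some very young siliques from 4-week-old plants of ecotype Col-0. The mutant group held 3 samples titled as an rdr2 mutant, whose descriptions name the allele rdr2-1. Their genotype field, however, reads rdr2-1, rdr2-2 and rdr2-3 in replicates 1, 2 and 3, and they were treated as 1 group. The wild-type (WT) group held 3 samples, and each group's samples are labelled biological replicates. Plants were grown on Murashige-Skoog medium or in a greenhouse, and the labels do not say which sample came from where. Every sample was hybridised alone, in 1 colour (Cy3), to a custom Agilent array, so 6 arrays were compared.

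RDR2, RNA-DEPENDENT RNA POLYMERASE 2, copies transcripts of RNA polymerase IV into double-stranded RNA. DCL3, a Dicer, cuts this RNA into small interfering RNAs, and Argonaute proteins carry these to transcripts of RNA polymerase V, where cytosine methylation is laid down on the DNA. In Arabidopsis this pathway, RNA-directed DNA methylation, is known for silencing transposons and repeats, both in the heterochromatin around the centromeres and in small islands between the genes of the arms. LincRNAs are transcribed between protein-coding genes and are not translated into known proteins, and the function of most is unknown. The question, going by the title of the series, is which lincRNAs RDR2 regulates.

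RDR2 itself (AT4G11130) lies on chromosome 4 and checks the labels. Signals are given as scaled signal: the authors' processed intensity of a probe as a percentage of a reference level of its array. That level was the 75th percentile of the 2369 probes that Feature Extraction marked well above background on each of the 6 arrays. On its probe with the smallest p, RDR2 had a scaled signal of 61.4, 62.0 and 66.4 on the rdr2 arrays, against 395, 381 and 454 on the WT arrays. The log2 fold change was -2.69 (SE 0.125, limma adjusted p = 0.000168), and the groups did not overlap. The other probes of RDR2 stood at -2.63 and -2.73. The position of these probes with respect to the mutation was not looked up here. Of 19 listed genes of RNA-directed DNA methylation, 4 were on the array. RDR2 was the 1 that fell, and 1 rose, NRPD1, the largest subunit of RNA polymerase IV (log2 fold change 1.02, SE 0.104, adjusted p = 0.00413). DCL3 and the RNA polymerase V subunit NRPE1 did not pass, with -0.38 for DCL3 (SE 0.127, adjusted p = 0.105) and -0.32 for NRPE1 (SE 0.127, adjusted p = 0.142). The array carried none of the 9 listed floral organ identity genes, the 5 tapetum and anther, 4 pollen, 4 leaf or 5 root markers, so the tissue could not be checked against them. Of 9 carpel, ovule and seed markers 3 were on the array, and 1 of them fell: FUS3, a regulator of seed maturation (log2 fold change -1.79, SE 0.126, adjusted p = 0.000938). LEC1 and ABI3, also regulators of seed development, stood at -0.08 and -0.84 without passing (adjusted p = 0.808 and 0.272). Whether a differing share of ovules and young siliques had a part in the lincRNA results was not tested. In whole tissue, fewer cells of a type and less RNA per cell cannot be told apart.

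Most arm units were dim, and rdr2 replicates 1 and 2 showed fewer of them than any WT array did. A probe was counted as detected when Feature Extraction marked it well above background. On the rdr2 arrays 133, 137 and 228 of the 1287 arm probes were detected, against 405, 404 and 231 on the WT arrays. By unit, 88, 91 and 154 of 439 had a detected probe in rdr2, and 271, 271 and 147 in WT. The groups overlapped by unit, since rdr2 replicate 3 showed slightly more than WT replicate 3. The shares of arm probes, 10.3%, 10.6% and 17.7% in rdr2 and 31.5%, 31.4% and 17.9% in WT, moved with those of all probes on the same arrays, 17.6%, 17.8% and 24.8% in rdr2 and 37.9%, 37.4% and 24.1% in WT. The reference level for scaling was an intensity of 162, 155 and 285 on the rdr2 arrays and 367, 305 and 371 on the WT arrays, so rdr2 replicates 1 and 2 were the dimmest. Replicates 1 and 2 of each group shared a slide and a scan, and the replicate 3 arrays each had their own; no slide held both groups. Across 2369 probes, which are not independent replicates, the correlation was 0.994 to 0.995 within the 2 shared slides. It was 0.969 to 0.977 across slides within a group, and 0.947 to 0.957 between groups. The difference in brightness therefore touches every result below, and its part in them was not tested.

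**Figure D1:**
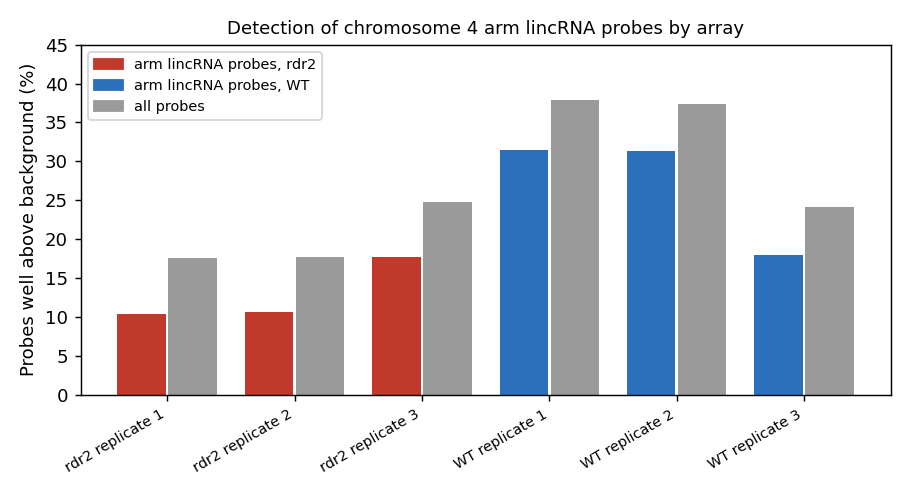
Share of probes well above background on each array (percent), for the 1287 chromosome 4 arm lincRNA probes (coloured, rdr2 left and WT right) and for all 15013 probes (grey). The arm probes lie below all probes on each of the 6 arrays, and rdr2 replicate 3 and WT replicate 3 stand close together at 17.7% and 17.9%.

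To be tested, a probe had to be detected on every array of rdr2, of WT or of both, and 3345 probes met this filter. Among the arm units 130 had such a probe, with 196 probes in all (15.2% of arm probes, against 22.3% of all probes). Of the remaining units, 204 had a probe above background on at least 1 array but none that met this filter, and 105 were above background nowhere. Of the 196 probes, 108 met the filter in both groups, 80 in WT alone and 8 in rdr2 alone. Meeting it in 1 group alone favours a higher signal there, though some arrays of the other group may also detect the probe. AT4TU056310, described below, met it through the rdr2 arrays alone and was fitted lower in rdr2. Well above background on all 3 arrays of 1 group and on none of the other were 0 arm probes in the rdr2 direction and 24 in the WT direction (1.86% of arm probes, against 1.54% of all probes).

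At a limma adjusted p under 0.05, 8 of 130 units were higher in rdr2 (6.15%, against 5.85% of all tested transcript names). A further 11 were lower (8.46%, against 10.7%). A unit stands here for whichever of its probes had the smallest p. Of the 19 called units, 11 (5 rises and 6 falls) were detected on all 6 arrays. The other 8 (3 rises and 5 falls) met the filter only in the group where they were high. With slide as a random block 0 units were called higher and 3 lower, and those 3 are described below with their background shares. Counted over probes, 8 of 196 rose and 18 fell, where the background shares were 5.11% and 8.49%. The share of called arm units was thus near that of the array as a whole in either direction. At an unadjusted p under 0.05, 14 probes were higher and 49 lower (background 9.69% and 23.5%). All 3 rdr2 arrays lay above all 3 WT arrays on 17 probes (8.67%, background 12.2%) and below them on 49 (25%, background 26.6%). Of the 19 calls 42.1% were rises. That share was 52.9% with median scaling, and it was 85.7% where all probes set the 75th percentile, where 6 units rose and 1, AT4TU027070, fell (background 4.35% and 1.34%). It was 12.3% without WT replicate 3, and no call was a rise with slide as a random block, with slides averaged, with the looser filter or without the 2 dimmest arrays.

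The median log2 fold change of the 196 arm probes was -0.42, with quartiles of -0.95 and 0.06, against a median of -0.26 over all tested probes. The offset differed with brightness and scaling. All tested probes were split by mean signal into 3 equal classes. In the dimmest class, which held 92 of the arm probes, the arm median was -0.79 (all probes -0.66). In the middle class (77 arm probes) it was -0.14 (all probes -0.24), and in the brightest class (27 arm probes) -0.12 (all probes -0.08). With quantile normalization the arm medians of these classes, dimmest first, were -0.16, 0.13 and -0.03, and the median of all 196 was 0.0075. With the 75th percentile over all probes the arm median was 0.19, where the median of all tested probes was 0.35. No general fall or rise of arm lincRNAs is therefore read from these medians.

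Of the 19 called arm units 2 had a fitted change of at least 4-fold, AT4TU038350 and AT4TU027070, the second of which is measured only as a bound. Among chromosome 4 units within 3 Mb of the 4 Mb point, 11 of 65 tested were called and 4 of those 11 had a fitted change of at least 4-fold. On the other chromosomes 38 of 169 called units did. Over the whole array 308 of 1862 tested names were called, and 54 of those 308 (17.5%) had such a change. The median size of a called log2 fold change was 1.099 in the arms of chromosome 4, 1.32 around its 4 Mb point and 1.28 on the other chromosomes. Over all called names it was 1.08. Fitted values against signals not above background are included in each. These differences between regions were not tested.

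**Figure D2:**
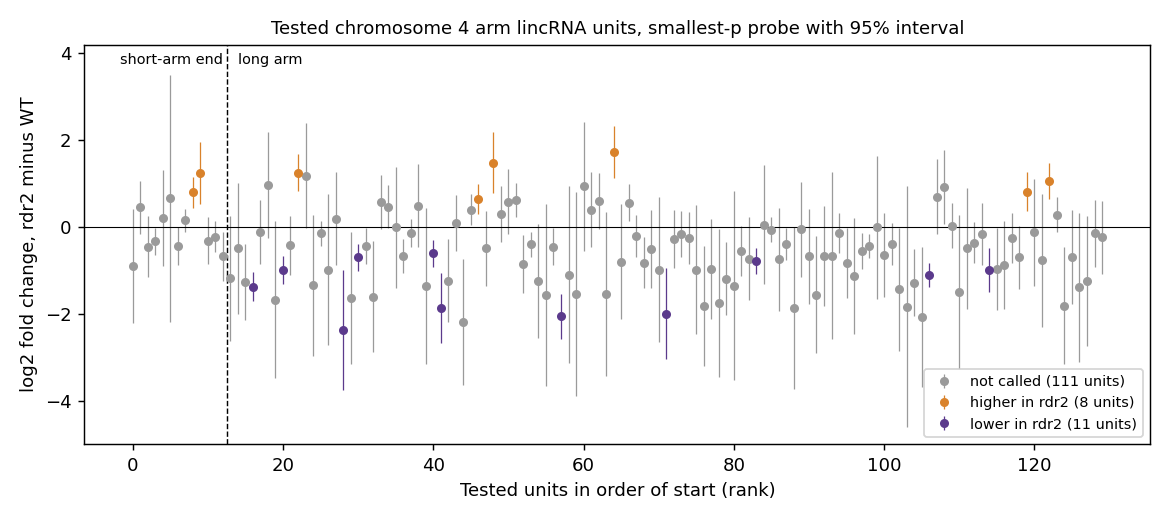
Log2 fold change (rdr2 minus WT) of the 130 tested arm units, each by its probe with the smallest p, in order of start along the chromosome; bars are 95% intervals of the limma fit and the dashed line parts the short-arm end from the long arm. The 8 units called higher (orange) and 11 called lower (purple) are spread over the order, from a log2 fold change of 1.73 to -2.37, among 111 not called (grey).

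A set of 3 units fell on every one of its probes: AT4TU038350, AT4TU024160 and AT4TU057340. They were the only ones of 48 arm units with at least 2 tested probes (6.25%) in which all tested probes were called in 1 direction; over the array 6.76% of such names were. All of their probes were detected on all 6 arrays, so no fold here is a bound.

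AT4TU038350 lies on the long arm between stated starts at 11229863 and 11420798. Its scaled signal was 14.3, 14.0 and 12.6 in rdr2, against 42.7, 70.4 and 60.5 in WT. Mean signals were 13.7 ± 0.906 in rdr2 and 57.9 ± 14.0 in WT (SD, n = 3 each), a 4.16-fold fall (log2 fold change -2.06, SE 0.212, adjusted p = 0.00413). The 3 rdr2 arrays agreed closely and lay far below the lowest WT array, WT replicate 1. On a second probe the signals were 23.8, 22.2 and 30.3 in rdr2, against 67.3, 80.3 and 77.5 in WT (-1.57, SE 0.167, adjusted p = 0.00452). On the third they were 48.8, 43.3 and 24.3 in rdr2, against 127, 140 and 128 in WT (-1.82, SE 0.282, adjusted p = 0.0143). Here rdr2 replicate 3 was the lowest of all 6 arrays. These 3 probes passed in different settings. With slide-mates averaged to 1 replicate, AT4TU038350 was the sole arm unit still called lower (background 0.483%). The same held with probes above background on at least 1 array admitted to the test (0.508%). In these settings the probe with the smallest p passed (adjusted p = 0.0498 and 0.0368). Without the 2 dimmest arrays, rdr2 replicate 3 was the only mutant array left, so no call is read from that fit. The log2 fold changes were there -2.17, -1.30 and -2.43, in the order of the probes above. The largest of these falls was on the probe where rdr2 replicate 3 was the lowest of all arrays.

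AT4TU024160 lies near the inner edge of the long-arm region, between stated starts at 7166499 and 7274742. Its scaled signal was 11.0, 10.02 and 12.7 in rdr2, against 27.9, 29.8 and 29.4 in WT. The WT arrays lay close together and far above the highest rdr2 array. Means were 11.2 ± 1.37 in rdr2 and 29.0 ± 1.01 in WT (SD, n = 3 each), a 2.59-fold fall (log2 fold change -1.38, SE 0.135, adjusted p = 0.00347). The other probes stood at -1.43 (SE 0.160) and -1.32 (SE 0.155), with adjusted p of 0.00526 and 0.00604, so the probes of this unit gave similar values.

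AT4TU057340, in the distal long arm between stated starts at 16276001 and 16734540, had scaled signals of 25.3, 24.96 and 26.1 in rdr2, against 58.4, 54.4 and 51.0 in WT. Means were 25.5 ± 0.564 in rdr2 and 54.6 ± 3.71 in WT (SD, n = 3 each), a 2.14-fold fall (log2 fold change -1.10, SE 0.114, adjusted p = 0.00413). The rdr2 arrays were almost equal, and the groups did not overlap. The other probes were lower by less, at -0.89 (SE 0.178, adjusted p = 0.0297) and -0.85 (SE 0.181, adjusted p = 0.0359).

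**Figure D3:**
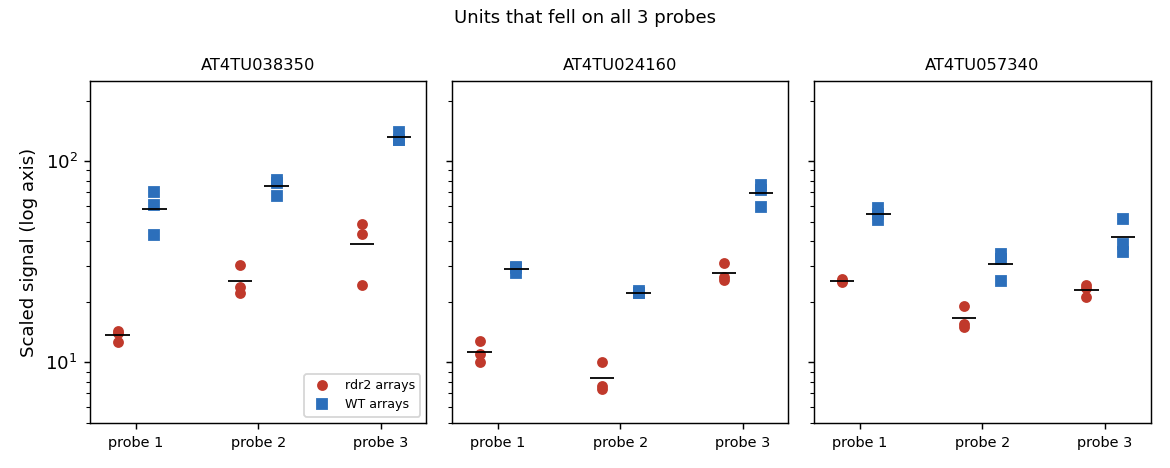
Scaled signal (log axis) on every array for the 3 probes of AT4TU038350, AT4TU024160 and AT4TU057340, ordered by p; circles are rdr2 arrays, squares WT arrays and lines their means. On each of the 9 probes every rdr2 array lies below every WT array.

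With slide as a random block (estimated within-slide correlation 0.773), limma called no arm unit higher (background 1.77%) and 3 lower (1.88%): these same units. At an unadjusted p under 0.05, 9 of 130 units were then higher and 17 lower, with no share over all names given for this threshold. AT4TU024160 was then called on all 3 probes, with adjusted p between 0.0293 and 0.0382, AT4TU038350 on 2 (0.0391 and 0.0422) and AT4TU057340 on 1 (0.0379). All 9 probes lost their calls with the 75th percentile over all probes, where the adjusted p of AT4TU038350 was 0.115 on its best probe, of AT4TU024160 0.560 and of AT4TU057340 0.700. There the SE of each probe was 0.550, and the log2 fold changes of the best probes stayed negative at -1.44, -0.76 and -0.49. The normexp setting joins a background correction (offset 50) with a quantile normalization. Its offset is added to every intensity before the log2, so it shrinks the log2 fold changes of dim probes most. With normexp the best probes kept their calls at smaller log2 fold changes, -0.59 for AT4TU038350 (adjusted p = 0.00561), -0.54 for AT4TU024160 (0.00167) and -0.52 for AT4TU057340 (0.00507).

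Another set of 3 falling units had several tested probes of which some were called. AT4TU049190 (start 14437099) had signals of 5.71, 6.05 and 6.39 in rdr2, against 9.80, 11.2 and 10.2 in WT (log2 fold change -0.78, SE 0.119, adjusted p = 0.0138). The groups did not overlap, and a second probe was called as well (-0.85, adjusted p = 0.0208). The remaining probe stood at -0.53 (adjusted p = 0.143), with overlapping arrays. AT4TU025000 (start 7538933) was at 3.58, 3.95 and 3.69 in rdr2, against 8.15, 7.54 and 6.71 in WT (-0.99, SE 0.128, adjusted p = 0.00832). Its other tested probe differed by -1.19 without passing (SE 0.555, adjusted p = 0.195), and there WT replicate 3, at 3.23, lay inside the rdr2 range. AT4TU059670 (start 17393822) was at 2.58, 2.34 and 3.64 in rdr2, where 1 array was above background, against 6.03, 4.93 and 5.84 in WT (-0.99, SE 0.206, adjusted p = 0.0337). Its other probes stood at -0.82 and -0.81 (limma adjusted p = 0.0825 and 0.0526), also with no overlap between the groups. All 3 probes of this unit pointed down and 1 passed. The called probe and the probe at -0.81 met the filter through the WT arrays alone, which favours that direction. With normexp none of the probes whose signals are given here for these 3 units was called, at -0.085 for AT4TU049190, -0.054 for AT4TU025000 and -0.085 for AT4TU059670 (adjusted p = 0.406, 0.519 and 0.459). AT4TU049190 was nonetheless among the units called lower with normexp, on another of its probes. AT4TU025000 and AT4TU059670 were not.

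The remaining 5 falls rest on 1 tested probe each, the unit's other 2 probes not having met the filter. AT4TU030660, between stated starts at 8933288 and 9188232, was at 9.94, 9.79 and 8.34 in rdr2, against 14.8, 14.4 and 13.4 in WT (log2 fold change -0.61, SE 0.128, adjusted p = 0.0350). AT4TU027990 (start 8346103) was at 2.14, 2.46 and 2.42 in rdr2, above background on 1 array, against 3.74, 3.54 and 4.12 in WT (-0.70, SE 0.127, adjusted p = 0.0228). Both are narrow gaps between tight groups. The direction of AT4TU030660 turned to 0.0053 with the 75th percentile over all probes, and that of AT4TU027990 to 0.042 with quantile normalization. With normexp AT4TU030660 stood at -0.087 and AT4TU027990 at 0.039, neither called.

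On the other 3 of these probes no rdr2 array was above background, so each fold is a bound against the floor of the rdr2 arrays. The floor on an array is the higher of the lowest signal among its probes well above background and the probe's own signal. The bound compares means of log2 signal over the arrays of a group. It leaves out the spread between arrays and is not a confidence limit. AT4TU027070, between stated starts at 7729442 and 8131889, was at 0.775, 0.839 and 1.45 in rdr2, against 8.998, 6.34 and 2.30 in WT. That is at least 2.36-fold lower (adjusted p = 0.0457), and the WT arrays differed among themselves, with replicate 3 well under the other two. AT4TU032610 (start 9731439) was at 0.806, 1.45 and 1.54 in rdr2, against 4.49, 5.71 and 3.37 in WT, at least 2.02-fold lower (adjusted p = 0.0208). AT4TU045360 (start 13279654) was at 0.670, 0.800 and 1.15 in rdr2, against 5.34, 3.78 and 1.94 in WT, at least 1.64-fold lower (adjusted p = 0.0350). In all 3 units WT replicate 3 came closest to the mutant. They entered the test through the WT arrays alone, and their p-values rest on rdr2 signals not above background. Normexp gave far smaller log2 fold changes, -0.23 for AT4TU027070, still called (adjusted p = 0.0434), and -0.073 for AT4TU032610 and -0.13 for AT4TU045360, which were not.

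Of the 8 rises, AT4TU040560, between stated starts at 11703337 and 12099438, had scaled signals of 5.001, 3.67 and 4.82 in rdr2, against 0.996, 1.59 and 1.53 in WT. It was above background on all 3 rdr2 arrays and on 1 WT array. The fitted difference was 1.73 on the log2 scale (SE 0.239, adjusted p = 0.00987). AT4TU034570, between 10228136 and 10710877, was at 7.41, 8.04 and 7.04 in rdr2, against 3.04, 3.61 and 1.77 in WT, where 2 arrays were above background (1.48, SE 0.282, adjusted p = 0.0265). In both units the lowest rdr2 array lay above the highest WT array. Each was tested on 1 probe of 3, which met the filter through the rdr2 arrays alone. With normexp AT4TU040560 stood at 0.21 and lost its call (adjusted p = 0.0792), and AT4TU034570 stood at 0.27 and kept it (0.0119).

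Brighter rises were seen in AT4TU025970 and AT4TU061690, again on 1 tested probe each. AT4TU025970, between stated starts at 7729442 and 8131889, was at 39.5, 35.0 and 51.5 in rdr2, against 18.2, 16.7 and 17.3 in WT. The log2 fold change was 1.25 (SE 0.174, adjusted p = 0.0102), with means of 42.0 ± 8.54 in rdr2 and 17.4 ± 0.732 in WT (SD, n = 3 each). The 3 rdr2 arrays lay above all WT arrays, with replicate 3 the highest. AT4TU061690, near the end of the long arm between 17675818 and 18473430, was at 612, 656 and 824 in rdr2, against 311, 310 and 375 in WT (1.06, SE 0.168, adjusted p = 0.0151). Within each group replicate 3 was again the highest, and the groups stayed well apart. With normexp both kept their calls, at 0.49 for AT4TU025970 (adjusted p = 0.00657) and 0.67 for AT4TU061690 (0.00148).

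The other 4 rising units had several tested probes and were called on 1 of them. AT4TU002770 and AT4TU002560 lie at the short-arm end, between stated starts at 605137 and 924723. AT4TU002770 was at 3.49, 4.78 and 2.81 in rdr2, against 1.14, 1.58 and 1.98 in WT (log2 fold change 1.24, SE 0.288, adjusted p = 0.0448), and its second probe stood at 0.92 (adjusted p = 0.101). It met the filter through the rdr2 arrays alone, and with normexp stood at 0.15 without a call (adjusted p = 0.240). AT4TU002560 was at 11.9, 12.7 and 9.87 in rdr2, against 6.99, 6.65 and 6.14 in WT (0.80, SE 0.145, adjusted p = 0.0228). Its other probes stood at 0.77 (adjusted p = 0.0977) and 0.28 (adjusted p = 0.449). Both short-arm units leaned the same way on each tested probe, as did 69.4% of names with at least 2 tested probes over the array. Each tested probe of AT4TU002770 met the filter through the rdr2 arrays alone, which favours that direction. AT4TU002560 kept its call with normexp, at 0.31 (adjusted p = 0.0242).

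AT4TU060830 and AT4TU034230 did not lean the same way on each tested probe. AT4TU060830, between stated starts at 17675818 and 18473430, was at 423, 437 and 309 in rdr2, against 206, 209 and 243 in WT (0.81, SE 0.180, adjusted p = 0.0400). Its second probe, dimmer and on the WT side led by replicates 1 and 2, stood at -0.91 (SE 0.782, adjusted p = 0.443), and averaging the probes gave -0.045. AT4TU034230, between 10063331 and 10228136, was at 275, 286 and 231 in rdr2, against 180, 172 and 156 in WT (0.64, SE 0.140, adjusted p = 0.0394), while its second probe stood at -0.08 (adjusted p = 0.918). With normexp neither was called, at 0.48 for AT4TU060830 and 0.28 for AT4TU034230 (adjusted p = 0.0844 and 0.195).

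**Figure D4:**
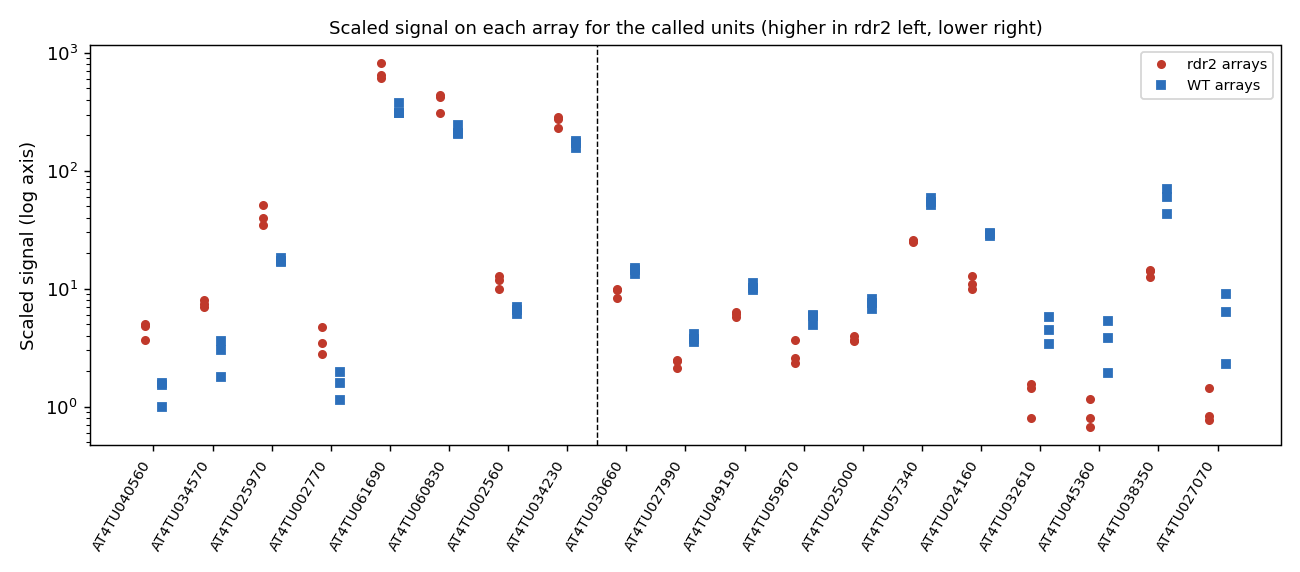
Scaled signal (log axis) on every array for the 19 called arm units, each on its probe with the smallest p; circles are rdr2 arrays and squares WT arrays, with rises left of the dashed line and falls right of it. The groups do not overlap in any of the 19; heights of different units are not comparable, since each has its own probe.

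Probes of a unit share a transcript and were not counted as replicates, but they show how far a unit's value rests on the probe. Of the 48 arm units with at least 2 tested probes, 34 (70.8%) had all of them on the same side of 0, where the share over the array was 69.4%. The median spread between the highest and the lowest log2 fold change of a unit was 0.45. Of the 19 called units 10 had several tested probes and 9 had 1.

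No called arm unit was next to another called one. In the order of units on the array, 2 called units were never neighbours, and the closest stood 2 places apart. By position, where 5.85% of all tested names rose and 10.7% fell, 2 of 13 tested units rose and 0 fell under 1 Mb. From 7 to 10 Mb 1 of 31 rose and 6 fell, from 10 to 13 Mb 3 of 27 rose and 1 fell, from 13 to 16 Mb 0 of 26 rose and 2 fell, and over 16 Mb 2 of 33 rose and 2 fell. The median log2 fold change of the tested probes was 0.08 under 1 Mb, and -0.46, -0.38, -0.67 and -0.60 in the 4 long-arm stretches in the same order. The share of these probes in the dimmest class was 34.8% under 1 Mb, and 50%, 43.2%, 56.8% and 45.8% along the long arm. The region under 1 Mb thus stood highest and also held the fewest dim probes; no difference along the chromosome was tested, and the part of brightness in it was not tested.

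Units with a stated start gave 6 falls and 0 rises among 28 tested, and units with an interpolated start 5 falls and 8 rises among 102, beside the same background shares of 10.7% and 5.85%. Their median log2 fold changes were -0.54 over 40 probes with a stated start and -0.39 over 156 with an interpolated one. The difference between these kinds of unit was not tested. All 40 tested probes with a stated start carried one design number in their probe names and all 156 others carried another, so start kind and probe design cannot be told apart.

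The units at the edges of the region were as follows. Just inside 7 Mb, none of AT4TU023550, AT4TU023830 and AT4TU024020 was called. AT4TU023830 had a log2 fold change of -0.48. AT4TU023550 and AT4TU024020 were above background on no rdr2 array. For AT4TU023550 the WT mean lay 1.56-fold above the same floor, but the arrays of the groups overlapped (limma adjusted p = 0.213). No fall is read from it, and AT4TU024020 has no measured fold. Just outside it, AT4TU021880 (-0.60) and AT4TU022870 (0.49) were called and AT4TU022290 (-1.03) was not. Just inside 1 Mb, AT4TU003510, AT4TU003040 and AT4TU003010 stood at -0.67, -0.22 and -0.31 and none was called. Just outside it, AT4TU004050 (1.17) and AT4TU004300 were called and AT4TU004290 (-1.14) was not. AT4TU004300 was above background on no rdr2 array, and its WT mean lay 1.097-fold above the same floor.

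For 64 of the 196 probes (32.7%), from 45 units, the 95% interval of the fit lay within 2-fold in either direction; over all tested probes this share was 48.9%. Examples, chosen after their values were seen, were the 5 units whose farther interval bound lay closest to 0. AT4TU029990 was at 19.97, 18.5 and 21.0 in rdr2, against 21.8, 19.6 and 18.8 in WT, and its log2 fold change of -0.02 had an interval of -0.33 to 0.29. AT4TU049370 was at 23.3, 23.6 and 23.2 in rdr2, against 25.4, 25.4 and 22.3 in WT (interval -0.34 to 0.23). AT4TU058460 was at 17.9, 20.1 and 17.6 in rdr2, against 20.6, 17.1 and 17.5 in WT (interval -0.32 to 0.35). In these 3 units the arrays of the groups overlapped. The other two did not overlap: AT4TU002260 lay higher in rdr2 (log2 fold change 0.16, interval -0.10 to 0.42) and AT4TU026320 lower (-0.14, interval -0.43 to 0.14).

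Some uncalled units had large fitted differences with wide spread. The 3 given here were chosen after their values were seen. AT4TU033930 was at 0.605, 0.652 and 0.907 in rdr2, where it was above background on no array, against 5.47, 4.77 and 1.28 in WT. Its WT mean lay 1.55-fold above the floor of the rdr2 arrays (adjusted p = 0.0649). AT4TU056310, detected on all 3 rdr2 arrays and 2 WT arrays, was at 3.44, 3.14 and 2.01 in rdr2, against 39.0, 14.0 and 1.79 in WT (log2 fold change -1.83, SE 1.12, adjusted p = 0.295). In both, WT replicates 1 and 2, which shared a slide, stood high and WT replicate 3 lay near the mutant. AT4TU026120, the largest uncalled rise, was at 4.41, 5.63 and 5.83 in rdr2, against 4.82, 1.30 and 1.98 in WT (1.18, SE 0.490, adjusted p = 0.158), where WT replicate 1 lay inside the rdr2 range.

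**Figure D5:**
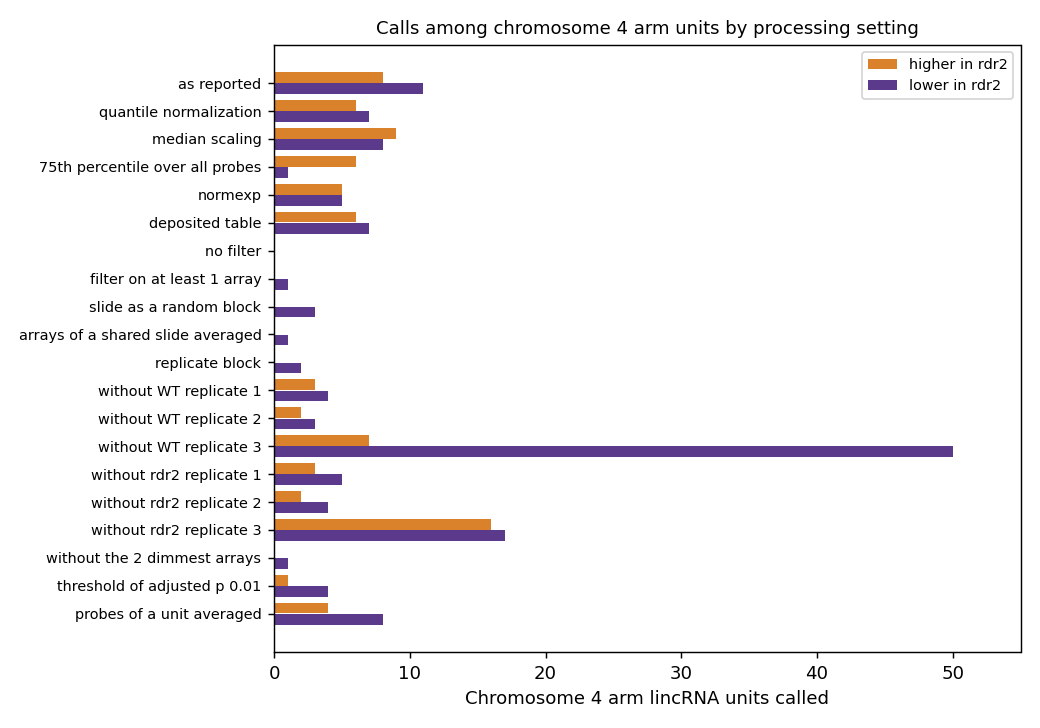
Number of chromosome 4 arm units called higher (orange) and lower (purple) in rdr2 under each processing setting, at an adjusted p under 0.05 unless another threshold is named. The counts of 8 and 11 as reported change to 0 and 3 with slide as a random block, and to 7 and 50 without WT replicate 3.

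With quantile normalization 6 units rose and 7 fell (background 5.69% and 5.26%), with median scaling 9 rose and 8 fell (6.55% and 6.87%), and with normexp 5 rose and 5 fell (7.73% and 8.38%). The authors' deposited table gave 6 rises and 7 falls (5.64% and 4.99%). With all probes tested limma called 0 and 0 (0.427% and 0.213%), and with probes detected on at least 1 array 0 and 1 (0.661% and 0.508%). Averaging the arrays that shared a slide gave 0 and 1 (0.859% and 0.483%), and leaving out the 2 dimmest arrays gave 0 and 1 (0.806% and 1.4%). At an adjusted p under 0.01, 1 unit rose and 4 fell (2.26% and 2.58%). At an unadjusted p under 0.05, limma found 139 of 439 units higher and 42 lower with all probes tested. The median log2 fold change was then 0.24 over arm probes and 0.16 over all probes. Of 334 units, 12 were higher and 37 lower with probes detected on at least 1 array. Of 130 units, 8 and 13 were so with averaged slides, and 6 and 19 without the dimmest arrays. Shares over all names are not given for these unadjusted counts, so no direction is read from them. Most arm calls were thus lost where slides were averaged, dim arrays left out or dimmer probes admitted.

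The number of calls also depended on single arrays. Without WT replicate 3, 7 arm units were called higher and 50 lower (background 6.28% and 34.7%), and without rdr2 replicate 3, 16 and 17 (10.3% and 16.5%). What remains after either is left out on its side is 1 slide. Leaving out WT replicate 1 gave 3 and 4 (2.95% and 2.63%), WT replicate 2 gave 2 and 3 (2.52% and 2.42%), rdr2 replicate 1 gave 3 and 5 (2.52% and 3.54%) and rdr2 replicate 2 gave 2 and 4 (2.42% and 3.11%). AT4TU038350, AT4TU024160 and AT4TU057340 were among the falls in each of these last 4 fits.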

How the data were processed

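Per the labels, RNA of each sample was labelled with Cy3 from 0.5 µg. Per the file headers, Agilent Feature Extraction read the scans, in version 10.7.3.1 for rdr2 replicate 3 and 10.5.1.1 for the remaining 5 arrays. The deposited processed signal is an intensity from which that software had taken background and a spatial trend, array by array. The deposited median intensity of each spot and of its surroundings had no such correction and was used for normexp alone, which was followed by quantile normalization. The authors' value table holds log2 values. Taking the processed signal with a floor of 1, its log2 and then a quantile normalization gave values within 0.1 of it for at least 99.86% of probes on each array; column medians were 0.949 to 0.950. The genome build field reads ath1:Jan2004 in 5 headers, and no source used here says whether the starts in the names follow it. No probe sequences were used here.

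Log2 processed signals were scaled on the 75th percentile over 2369 probes well above background on all 6 arrays. Control spots were left out. Fits used limma 3.58.1 in R 4.3.3 (lmFit, eBayes, group as sole term) over 3345 probes, and p-values were adjusted by Benjamini-Hochberg across all of them, with calls at 0.05. No arm spot was saturated, and 1 spot among the tested arm probes was marked uneven and kept. Of the units, 10 beyond the outermost stated starts were held at those values. Precision is limited by the number of arrays. The fit was tested on simulated arrays with independent noise, so without the correlation of arrays that shared a slide. There 75.25% of 4-fold and 47.5% of 2-fold changes were called, and 5.43% of calls were false. Figures used matplotlib 3.10.9.

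Named were the up to 12 largest called changes in each direction with no overlap between groups, units called on all of at least 2 tested probes, called neighbours, the 3 tested units on either side of each edge, RDR2, and up to 3 genes per list. Members and lists were chosen with earlier results of these data known. Alternatives covered scaling, background correction, filter, threshold, slide, replicate number, left-out arrays, averaged probes and the limits of the arm.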

Additional observations from a re-analysis of the deposited data

How the results depend on the processing

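Counts here are of arm units and of arm probes, rises before falls, as reported 8 and 11 units and 8 and 18 probes. They were 6 and 7 units and 6 and 11 probes with quantile normalization (over all tested probes 5.14% and 4.36%). The deposited table gave the same counts (5.11% and 4.13%). Counts were 9 and 8 units with median scaling, and 5 and 5 units and 5 and 10 probes with normexp, offset 50 (6.79% and 7.23%). They were 6 and 1 units and 6 and 1 probes when the 75th percentile was taken over all probes (3.74% and 1.08%). With no filter they were 0 and 0 for both, where 39 and 20 probes of all classes were called. With the filter on at least 1 array they were 0 and 1, with slide as a random block 0 and 3 units and 0 and 6 probes, and with slide-mates averaged 0 and 1. A limma adjusted p under 0.01 left 1 and 4 units and 1 and 7 probes (over all tested probes 2.12% and 2.33%). Averaging the probes of a unit left 4 and 8 units. No share over all names is given here for the averaged probes, nor the numbers tested at the other limits of the arm. Over units with a stated start they were 0 and 6 units and 0 and 7 probes, more than 4 Mb from the 4 Mb point 5 and 9 units and 5 and 14 probes, and more than 2 Mb from it 11 and 13 units and 11 and 20 probes. Leaving out 1 array gave 2 to 16 rising and 3 to 50 falling units (over all tested names 2.42% to 10.3% and 2.42% to 34.7%). It gave 2 to 18 rising and 6 to 60 falling probes (over all tested probes 2.3% to 8.28% and 2.24% to 23%). Without the 2 dimmest arrays, an alternative chosen after seeing the data, they were 0 and 1; the lone mutant array is there assumed to vary like the WT arrays. Fewer arrays or slides, and more probes under a looser filter, are part of those settings; other causes were not tested.

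The median log2 fold change of arm probes, -0.42 as reported, was 0.0075 with quantile normalization, 0.0087 in the deposited table, -0.0195 with normexp, 0.24 with no filter and 0.19 when the 75th percentile was taken over all probes. AT4TU027990 turned to 0.042 with quantile normalization and in the deposited table and to 0.039 with normexp, AT4TU030660 to 0.0053 with the 75th percentile over all probes, and AT4TU060830 to -0.045 with its probes averaged. RDR2 kept its call under all 19 alternatives run for it (highest adjusted p 0.0348). Over the 19 named arm units, 135 of 361 values kept their call and direction, 221 kept the direction alone and 5 reversed.

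With a replicate block, 0 units and 0 probes rose and 2 units and 4 probes fell (AT4TU024160 and AT4TU038350). Of all tested names 1.66% and 2.52% were then called. At an unadjusted p under 0.05, limma then had 11 of 130 units higher and 32 lower, with no share over all names given for this threshold. Deviations of same-numbered arrays correlated at -0.12, -0.12 and -0.15, and those of arrays with different numbers at -0.145 to 0.177. The deviations within a group depend on one another, and replicates 1 and 2 shared a slide in each group. These correlations therefore could not decide whether the numbers pair the samples, and the numbers were not taken to do so.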
